A study of Mus musculus with 6 samples.

Results

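The genes described here are 10 genes of antigen presentation by major histocompatibility complex (MHC) class II, found by symbol in a deposited table of 39089 genes. They are the class II chains H2-Aa, H2-Ab1 and H2-Eb1, the invariant chain Cd74, the peptide editor subunits H2-DMa and H2-DMb1, the class II transactivator Ciita, the protease Ctss, and Itgax and Cd207, which mark dendritic and Langerhans cells. All 10 were present in the table, and 9 had enough counts to be tested, Cd207 being the exception. The samples were corneal limbus, the rim of tissue between cornea and conjunctiva, from wild-type mice. The labels give neither strain nor age. In 3 samples the mice had received subconjunctival L-733,060 on days 0 and 3, a compound that blocks the substance P receptor NK1. In the 3 control samples they had received sterile water by the same route, on days that are not given, and limbus was collected after a week. The comparison asks how blocking this receptor changes limbal gene expression. Nothing says that samples of a group came from separate mice, so p-values reflect how much these samples vary, and that variation may be technical.

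Class II molecules are pairs of an alpha and a beta chain that show peptides from endosomes to CD4+ T cells. The pair is assembled on the invariant chain Cd74, endosomal proteases such as cathepsin S degrade Cd74 down to a fragment in the peptide groove, and the H2-DM dimer exchanges this fragment for antigenic peptides. Ciita switches on the class II chain genes, Cd74 and the H2-DM genes, constitutively in dendritic cells and B cells and after interferon gamma in many other cells. In the ocular surface class II is known from dendritic cells, Langerhans cells and macrophages of the limbus and peripheral cornea.

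After L-733,060, Ctss, Itgax and H2-Ab1 rose, to 2.03-fold, 2.66-fold and 1.69-fold of control, while H2-Aa, H2-Eb1, Cd74, Ciita and both H2-DM genes did not pass the test. In all, 3 of 9 tested genes rose and 0 fell. The criterion was an adjusted p below 0.05 by the quasi-likelihood test of edgeR, with Benjamini-Hochberg adjustment across the 15712 tested genes. Of all tested genes 21.4% rose and 19.9% fell, 41.3% together. At an unadjusted p under 0.05 the same edgeR fit had 5 of the 9 higher and 1 lower. So had 7771 of all 15712 tested genes, counted in either direction. At an adjusted p under 0.05 DESeq2 called 3 of the 9 higher and 0 lower, and limma on TPM 4 higher and 1 lower. The median log2 fold change of the 9 was 0.42, beside -0.0016 for all tested genes.

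**Figure D1:**
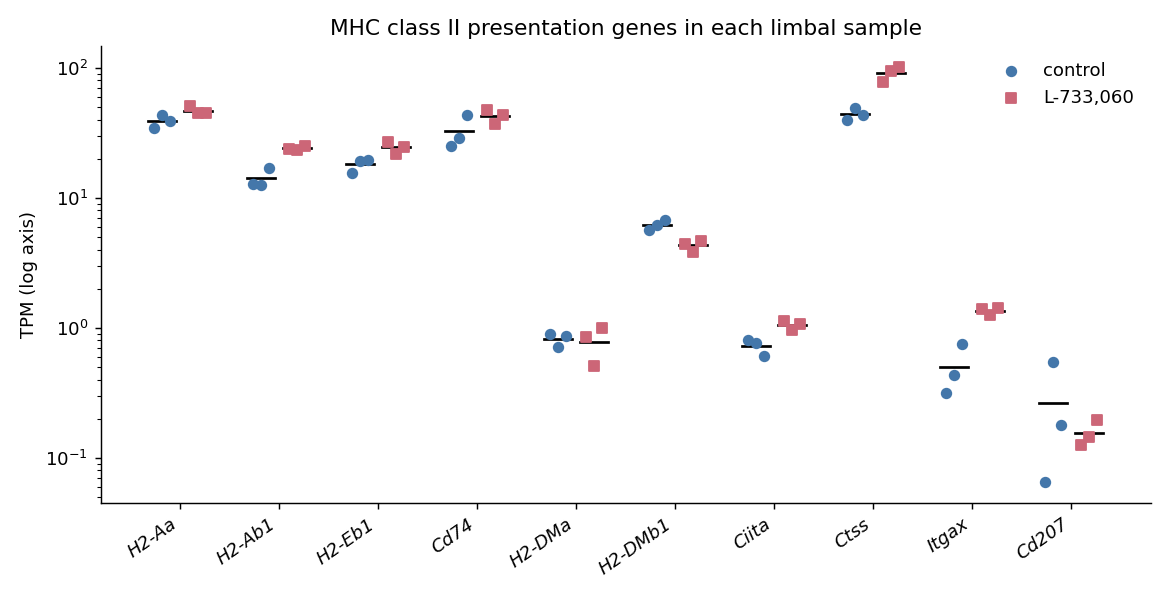
Level of each of the 10 genes in each sample, in TPM on a log axis, with circles for the 3 control samples, squares for the 3 L-733,060 samples and a line at each group's mean. On this scale every L-733,060 sample lies above every control for H2-Aa, H2-Ab1, H2-Eb1, Ciita, Ctss and Itgax and below every control for H2-DMb1, and of these H2-Ab1, Ctss and Itgax passed the test.

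Levels are given as TPM, the deposited value scaled by gene length, so that genes can be set beside each other. In controls Ctss had the highest mean level (44.1 TPM), followed by H2-Aa (38.8 TPM), Cd74 (32.4 TPM), H2-Eb1 (18.1 TPM), H2-Ab1 (14.1 TPM) and H2-DMb1 (6.15 TPM). Below 1 TPM were H2-DMa (0.824 TPM), Ciita (0.727 TPM), Itgax (0.499 TPM) and Cd207 (0.263 TPM). Control samples of neighbours in this order overlapped for Ctss and H2-Aa, H2-Aa and Cd74, H2-Eb1 and H2-Ab1, H2-DMa and Ciita, Ciita and Itgax, and Itgax and Cd207. With L-733,060 Ctss (91.3 TPM) no longer overlapped H2-Aa (46.9 TPM), H2-Eb1 and H2-Ab1 were close together (24.4 and 24.1 TPM), and Itgax (1.35 TPM) stood above Ciita (1.05 TPM) and H2-DMa (0.782 TPM). The place of H2-DMa rests on a deposited length of 8325 bases, against at most 2005 bases for its coding transcripts in GENCODE M21, and at that length its level would be 3.42 TPM in controls and 3.25 TPM with L-733,060. Ciita likewise has a deposited length of 9799 bases against at most 6007. At that length it would be at 1.19 TPM in controls and 1.72 TPM with L-733,060, and then above Itgax in both groups (0.551 and 1.49 TPM at 4046 bases), so the order of Ciita and Itgax with L-733,060 depends on the length used.

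Among the class II chains only the A beta chain passed the test. H2-Ab1 (chromosome 17, 34263227 to 34269418, plus strand, mm10) measured 12.7, 12.5 and 17 TPM in controls 1 to 3 and 23.9, 23.1 and 25.2 TPM in L-733,060 samples 1 to 3. The groups did not overlap, and the log2 fold change was 0.76 (SE 0.17, edgeR adjusted p = 0.00367). Its log2 fold change was higher than that of 85.1% of all tested genes.

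H2-Aa, the A alpha chain (chromosome 17, 34282744 to 34287823, minus strand), measured 34.3, 43.3 and 38.7 TPM in controls and 50.7, 45.0 and 45.0 TPM with L-733,060. The groups did not overlap on this scale, with control 2 just below the L-733,060 samples. CPM here are counts scaled to library size times a TMM normalisation factor. On that scale control 2, at 24.8, exceeded L-733,060 samples 2 and 3, at 24.4 and 22.8. The factors were 0.962 for control 2, 1.00 for L-733,060 2 and 1.06 for L-733,060 3, so the order depends on the scaling. The log2 fold change of H2-Aa was 0.26 (SE 0.15, edgeR adjusted p = 0.203) and did not pass.

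H2-Eb1, the E beta chain (chromosome 17, 34305867 to 34316674, plus strand), measured 15.5, 19.1 and 19.6 TPM in controls and 27.0, 21.7 and 24.4 TPM with L-733,060. The groups did not overlap, but the log2 fold change was 0.42 (SE 0.17, edgeR adjusted p = 0.0632), short of the threshold. Without L-733,060 3 it did, at an edgeR adjusted p of 0.0418, as it did with limma on log2(TPM + 1) and log2(TPM + 0.1), at 0.0402 and 0.0384. On the CPM scale groups failed to overlap in 52.0% of all tested genes, 26.6% with L-733,060 above and 25.4% with it below. The E alpha chain that would pair with it, H2-Ea, is annotated in the table as a transcribed pseudogene and had no counts in any of the 6 samples, which allows at most 0.0234 CPM over them. As background, H2-Ea is not transcribed in mouse strains of the H2-b haplotype, to which the reference genome's strain belongs.

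The chain genes and H2-DM genes are known to share a promoter module, an X box bound by the RFX complex and a Y box bound by NF-Y, on which Ciita docks. The stretches that hold it are shown because they carry the boxes through which Ciita is known to act on such genes. They lie upstream of the start site in RefSeq's GRCm38.p6, read along the gene's own strand, and the capitals mark letters found by search, GNAAC in the X box and ATTGG of the Y box.
H2-Aa, minus strand, chr17:34287847-34287924: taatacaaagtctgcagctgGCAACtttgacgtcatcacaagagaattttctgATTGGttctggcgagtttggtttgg
H2-Eb1, plus strand, chr17:34305756-34305832: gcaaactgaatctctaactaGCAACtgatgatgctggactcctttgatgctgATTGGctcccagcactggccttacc
H2-DMb1, plus strand, chr17:34153077-34153154: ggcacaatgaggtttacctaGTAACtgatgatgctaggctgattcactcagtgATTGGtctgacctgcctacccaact

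The search asked for GNAAC followed by ATTGG after 20 to 32 bases on either strand, within 250 bases before to 50 bases after a start site, with letters and spacing chosen after these promoters had been read. Of the 10 genes 7 had a window that was used here, and 3 held the pair, which 2.25% of 32851 promoter windows do. Chromosome 18, which holds Cd74, was left out for the set but not for that share. No window was found for H2-Ab1 and Ciita. The boxes lay 28 bases apart in H2-Aa and H2-DMb1 and 27 in H2-Eb1. ATTGG alone, which every pair includes, occurs in 37.4% of windows. Neither of the 2 H2-DMa windows held the pair. The 3 genes with it had log2 fold changes of 0.26, 0.42 and -0.53 for H2-Aa, H2-Eb1 and H2-DMb1, none past the test.

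Cd74, the invariant chain (chromosome 18, 60803849 to 60812652, plus strand), measured 24.9, 28.8 and 43.5 TPM in controls and 47.0, 36.9 and 43.1 TPM with L-733,060. Control 3 lay among the L-733,060 samples, and the log2 fold change was 0.37 (SE 0.20, edgeR adjusted p = 0.151), which did not pass. Over the 12 alternatives the log2 fold change ran from 0.19 without control 1 (edgeR adjusted p = 0.473) to 0.63 without control 3 (edgeR adjusted p = 0.0231), the one alternative in which Cd74 passed.

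Neither subunit of the peptide editor passed the test. H2-DMa (chromosome 17, 34119693 to 34139101, plus strand) measured 0.889, 0.712 and 0.869 TPM in controls and 0.847, 0.508 and 0.991 TPM with L-733,060, with L-733,060 2 the lowest and 3 the highest of all samples. Its log2 fold change was -0.08 (SE 0.26, edgeR adjusted p = 0.823), and 0.14 without L-733,060 2. Its deposited interval shares 3122 bases with Brd2 on the opposite strand, and as the strand mode of counting is not stated, reads of either gene in that stretch cannot be told apart.

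H2-DMb1 (chromosome 17, 34153191 to 34160229, plus strand) measured 5.61, 6.13 and 6.69 TPM in controls and 4.44, 3.81 and 4.65 TPM with L-733,060. Every L-733,060 sample lay below every control. The log2 fold change was -0.53 (SE 0.22), which did not pass in edgeR (adjusted p = 0.0723) and did pass with limma on log2(TPM + 1) and log2(TPM + 0.1) (adjusted p = 0.0422 and 0.0404). Its near copy H2-DMb2 had 4 counts in all controls together and 17 in all L-733,060 samples, and reads from stretches that both genes share could be split between them. The H2-O genes, whose product restrains H2-DM, were near absence, with H2-Oa at 7 and 14 counts and H2-Ob at 9 and 6 counts in the pooled controls and L-733,060 samples.

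Ciita, the transactivator (chromosome 16, 10480014 to 10531064, plus strand), measured 0.806, 0.766 and 0.609 TPM in controls and 1.13, 0.954 and 1.08 TPM with L-733,060. The groups did not overlap, but the log2 fold change was 0.52 (SE 0.21, edgeR adjusted p = 0.0670) and did not pass, nor did it under any of 12 alternatives (adjusted p 0.0569 to 0.219). Its interval overlaps Dexi on the opposite strand by 858 bases and an uncharacterised locus, LOC115488669, by 15932.

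Ctss, cathepsin S (chromosome 3, 95526786 to 95556405, plus strand), had the smallest p of the set. It measured 39.8, 48.9 and 43.6 TPM in controls and 78.2, 93.7 and 102 TPM with L-733,060. The lowest L-733,060 sample stood well above the highest control, and the log2 fold change was 1.02 (SE 0.14, edgeR adjusted p = 1.33e-04). The end of its promoter is shown because, unlike H2-Aa and H2-Eb1, it held no X and Y box pair in its window but GAAA, any 2 bases, then GAAA again, a form that interferon regulatory factors are known to bind, in capitals here (RefSeq, GRCm38.p6).
Ctss, plus strand, chr3:95526735-95526785: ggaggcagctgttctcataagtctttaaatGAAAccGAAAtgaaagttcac
Either strand of 3.44% of promoter windows holds these letters, and of the 7 genes with a window used here Ctss alone did. A match is not evidence of binding.

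Of the cell markers, Itgax rose and Cd207 was too low to test. Itgax, the CD11c integrin chain carried by dendritic cells and some macrophages (chromosome 7, 128129526 to 128150657, plus strand), measured 0.313, 0.435 and 0.749 TPM in controls and 1.38, 1.25 and 1.42 TPM with L-733,060. The groups did not overlap, and the log2 fold change was 1.41 (SE 0.32, edgeR adjusted p = 0.00432). Itgax, Ctss and H2-Ab1 passed under each of the 12 alternatives run. Cd207, langerin, the lectin of Langerhans cells (chromosome 6, 83671207 to 83677857, minus strand), had 1, 9 and 3 counts in controls and 2, 2 and 3 with L-733,060. The ratio of L-733,060 to control was 0.577, and its exact 95% interval from counting ran from 0.195 to 1.56, so that a difference was not detectable at this depth. Libraries held 18708288 to 23541791 counts.

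Within-sample ratios asked whether the genes changed by unequal amounts, over 9 ratios fixed for this purpose. With 3 samples a group the two-sided exact permutation test cannot go below p = 0.10, and each p at that limit is 0.18 after adjustment over the 9, so none passed. H2-Ab1 per H2-Aa was 0.371, 0.289 and 0.439 in controls and 0.471, 0.514 and 0.560 with L-733,060, a 1.42-fold difference without overlap (exact permutation p = 0.10). H2-Eb1 per H2-Ab1 was 1.16 to 1.53 in controls and 0.937 to 1.13 with L-733,060, again without overlap (exact permutation p = 0.10). Cd74 per H2-Aa overlapped, at 0.666 to 1.12 and 0.820 to 0.960 (exact permutation p = 0.60). The ratios of H2-DMa to H2-Aa, H2-DMb1 to H2-DMa and Ctss to Cd74 overlapped too (exact permutation p = 0.30, 0.20 and 0.20).

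**Figure D2:**
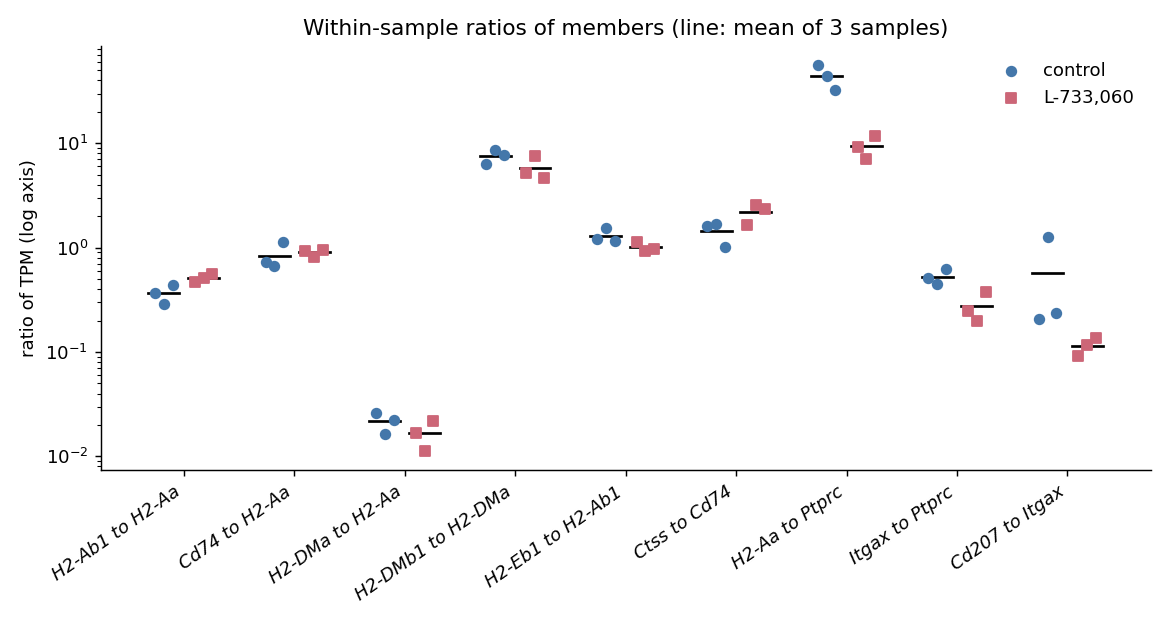
Ratio of the TPM of the named genes in each sample, on a log axis, with circles for the 3 control samples, squares for the 3 L-733,060 samples and a line at each group's mean. The lowest control has 32.2 units of H2-Aa per unit of Ptprc, above the highest L-733,060 sample at 11.9.

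Set against the leukocyte marker Ptprc, the CD45 phosphatase carried by all leukocytes, H2-Aa was lower in every L-733,060 sample. Ptprc itself measured 0.613, 0.977 and 1.20 TPM in controls and 5.54, 6.31 and 3.79 TPM with L-733,060. H2-Aa per Ptprc was 56.0, 44.3 and 32.2 in controls and 9.15, 7.13 and 11.9 with L-733,060, 4.69-fold lower without overlap (exact permutation p = 0.10, the smallest this design allows). Itgax per Ptprc was 0.445 to 0.624 in controls and 0.197 to 0.376 with L-733,060 (1.97-fold lower, exact permutation p = 0.10). Cd207 per Itgax was 0.209 to 1.25 and 0.0913 to 0.137 (exact permutation p = 0.10), on few Cd207 counts.

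All 9 general leukocyte genes rose, with a median log2 fold change of 2.25 and a range of 1.59 to 3.01. Their summed level was 20.03 to 24.03 CPM in the control samples and 83.4 to 118 CPM after L-733,060. The summed TPM of H2-Aa, H2-Ab1, H2-Eb1 and Cd74 was 87.4 to 119 and 127 to 149, or 2.28 to 2.71 and 0.676 to 0.842 per unit of summed leukocyte TPM. The ratio fell while both sums rose, as the leukocyte sum was 38.4 to 43.9 TPM in controls and 163 to 200 TPM with L-733,060. In bulk samples a change in cell numbers and a change in RNA per cell cannot be told apart.

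**Figure D3:**
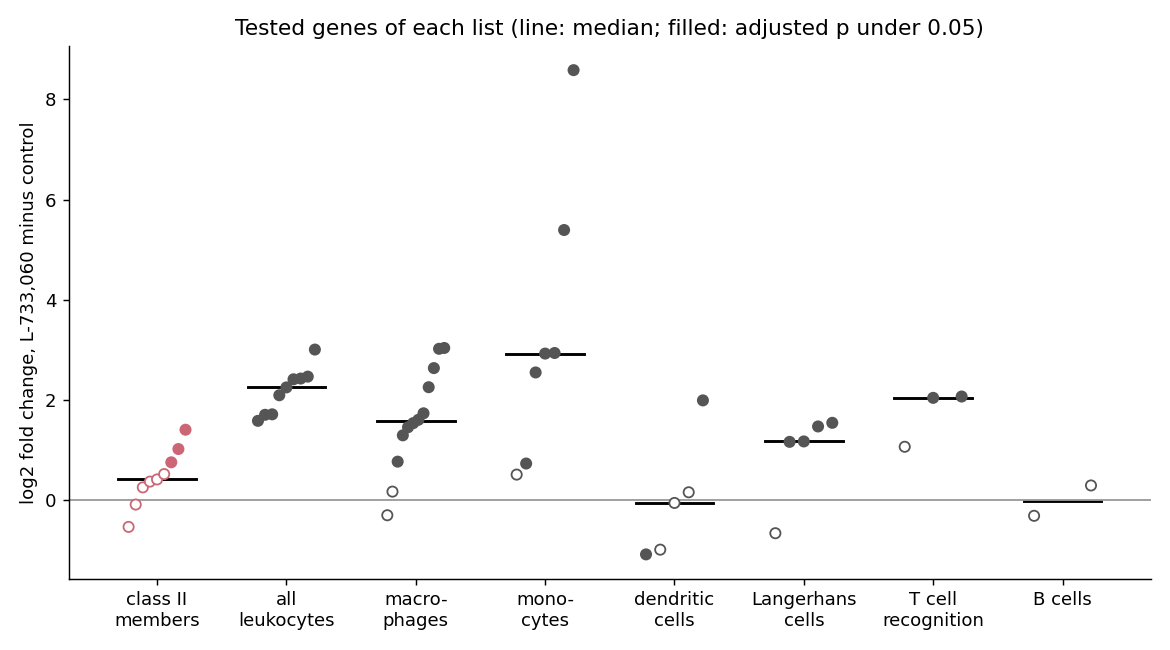
Log2 fold change (L-733,060 minus control) of each tested gene in the class II set and in 7 lists of marker genes, with a line at the median and filled points past the test. The class II genes lie between -0.53 and 1.41 around a median of 0.42, and the 9 leukocyte genes between 1.59 and 3.01.

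Of the cells known to carry class II, most macrophage and monocyte genes rose, and most genes of conventional dendritic cells were too low to test. Of 12 macrophage genes 10 rose and 0 fell (median 1.57, summed CPM 78.0 to 97.9 against 313 to 372), among them lysozyme Lyz2 (log2 fold change 3.04), the mannose receptor Mrc1 (3.02), Csf1r (1.74) and Cd14 (2.64), each at an edgeR adjusted p of at most 1.35e-05. Mertk and Cd163 did not pass (log2 fold change -0.30 and 0.17). For Mertk every L-733,060 sample lay below every control. Of 7 monocyte genes 6 rose and 0 fell, among them Ccr2 (log2 fold change 2.55) and F13a1 (2.93), at an edgeR adjusted p of at most 1.17e-05. Chil3 had no counts in any control.

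Of 12 genes of conventional dendritic cells 5 were tested. Wdfy4, needed for cross-presentation, rose (log2 fold change 1.99, edgeR adjusted p = 8.39e-04), Dpp4 fell (log2 fold change -1.08, edgeR adjusted p = 2.49e-04), and Mgl2, Sirpa and Cadm1 did not pass. Dpp4, Sirpa and Cadm1 are also expressed outside dendritic cells. The other 7 were too low to test and are given as pooled counts in controls and L-733,060 samples, with the exact 95% counting interval of the ratio. Flt3, the receptor that dendritic cells depend on, had 8 and 33 counts (ratio 4.42, interval 2.00 to 11.1). Batf3, a factor of cross-presenting dendritic cells, had 4 and 22 counts (interval 2.00 to 23.5), Clec10a 14 and 38 (1.54 to 5.81) and Itgae 7 and 23 (1.46 to 9.72). The intervals of Clec9a (8 and 16 counts), Cd209a (14 and 17) and Xcr1 (6 and 6) included a ratio of 1. These intervals cover counting error within the pooled libraries and not the spread between samples.

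Of 8 Langerhans cell genes 5 were tested and 4 rose, Epcam (log2 fold change 1.18), Tgfbr2 (1.17), Runx3 (1.55) and Cd24a (1.47), at edgeR adjusted p of at most 0.00542. Epcam, Tgfbr2 and Cd24a are also epithelial or stromal genes. Il34, the other tested gene, did not pass, at a log2 fold change of -0.66 (edgeR adjusted p = 0.0642). Every L-733,060 sample lay below every control for Il34, and it passed as lower without L-733,060 2. Cd207, which defines these cells, stayed at the level given above. Among B cell genes, pooled counts in controls and L-733,060 samples were 108 and 81 for Cd79b, 205 and 235 for Fcer2a, 3 and 0 for Ms4a1 and 1 and 16 for Cd22, and neither tested B cell gene (Cd79b, log2 fold change -0.31, and Fcer2a, 0.30) passed. The part of any of these cell types in the class II values was not tested.

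Other marker lists held genes that passed the test as well, as did 41.3% of all tested genes. Corneal and limbal epithelium had 5 of 7 genes lower and 1 higher (3 lower without L-733,060 1), conjunctival epithelium 6 of 6 higher, and corneal stroma 4 of 6 lower and 1 higher (0 higher without control 1 or control 2). Those lower included Krt12 and Aldh3a1 of epithelium (log2 fold change -3.58 and -3.68) and Kera and Aldh1a1 of stroma (-2.78 and -3.49). Those higher included Krt14 of limbal epithelium (3.21) and Krt7 of conjunctiva (1.68). Of 9 neutrophil genes 4 were tested, S100a8, S100a9, Cxcr2 and Csf3r, and all rose. Cxcr2 (0, 3 and 4 counts in controls) and Csf3r (5, 0 and 22) reached the test through their L-733,060 samples. Pooled counts of the untested genes in controls and L-733,060 samples were 5 and 6 for Ly6g, 4 and 1 for Camp and 0 and 3 for Mpo. Elane had 0 and 0, and Retnlg 1 and 136. Of 6 endothelial genes 2 rose and 0 fell (1 fell without control 1 or L-733,060 3), with a median log2 fold change of -0.061. Of 3 tested genes of a lacrimal gland list 1 rose and 2 fell, while Prol1 and Scgb1b2 of that list were at 0. Esp6 rose (log2 fold change 8.74) and Aqp5 and Car6 fell (-3.02 and -4.80). Esp6 (5, 6 and 5 counts in controls) reached the test through its L-733,060 samples, and Car6 through its controls. The part of these shifts in the class II values was not tested.

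CPM values of the following genes are means of 3 samples. Beside the counts of each list below, 21.4% of all tested genes rose and 19.9% fell. Of 10 tested genes of invariant chain and antigen processing, mostly endosomal proteases, 5 rose and 0 fell. Ctsz, cathepsin Z, rose from 13.1 to 34.5 CPM, by log2 1.40 (SE 0.17, edgeR adjusted p = 5.55e-05), and Ctsc, cathepsin C, from 134 to 239 CPM (0.83, edgeR adjusted p = 2.20e-04). Ctsb, cathepsin B, and Ifi30, the thiol reductase that opens disulfide bonds of antigens, rose by log2 0.71 and 0.77 (edgeR adjusted p = 7.73e-04 and 9.48e-04). Ctsl, which takes the place of Ctss in thymic epithelium, measured 862 against 689.9 CPM, and its log2 fold change of -0.32 did not pass in edgeR (adjusted p = 0.0641). DESeq2, limma on both TPM scales and the fit with a replicate block each called 1 gene of this list lower.

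**Figure D4:**
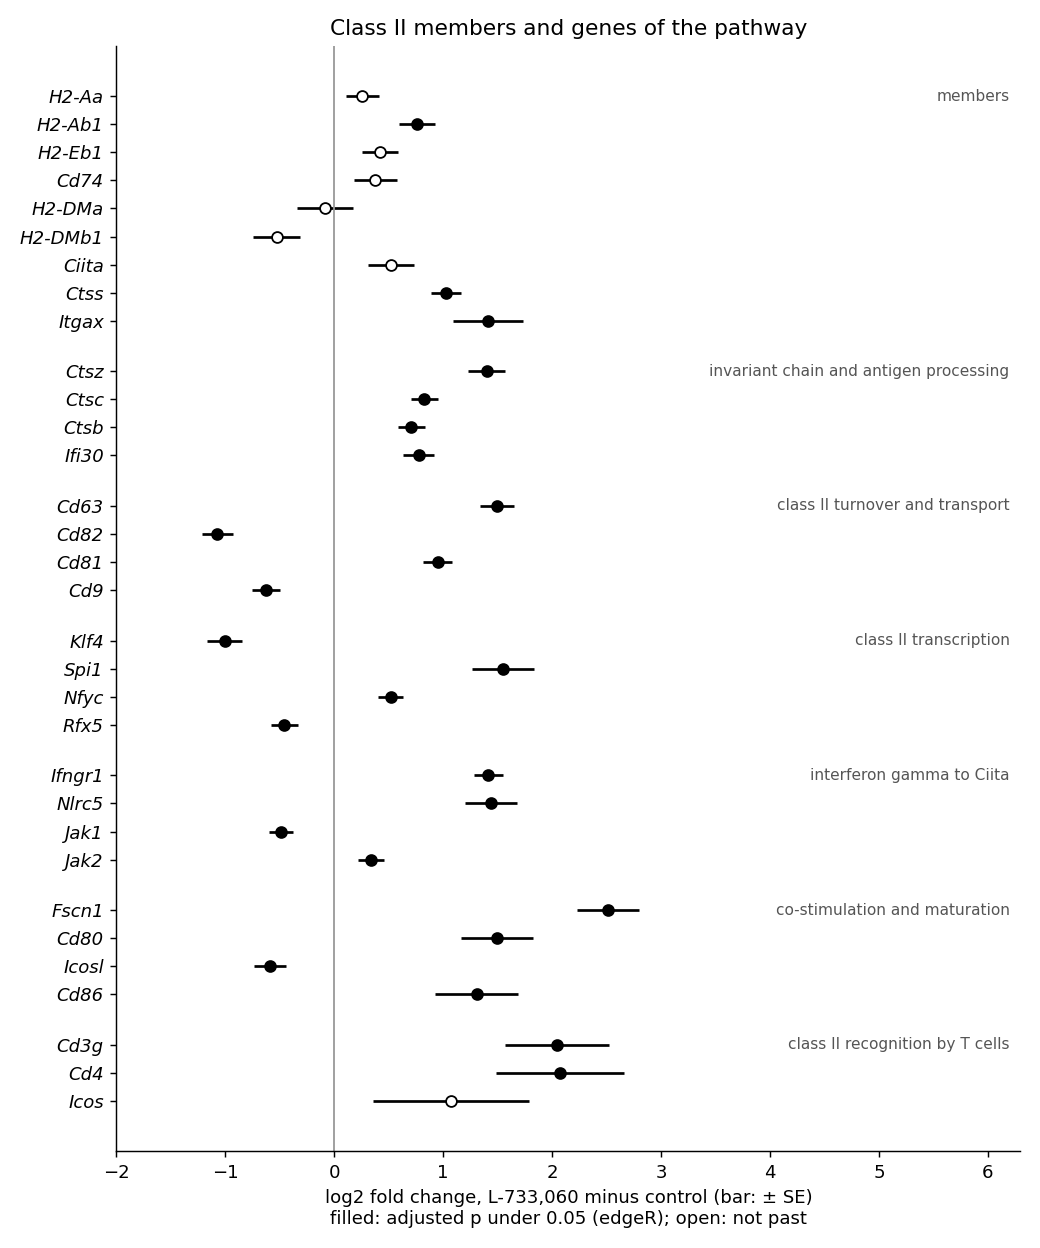
Log2 fold change (L-733,060 minus control, with SE) of the 9 tested class II genes and of up to 4 genes of smallest p in each of 6 lists of the pathway, filled where the edgeR adjusted p is under 0.05. H2-DMb1 has the lowest value of the class II genes at -0.53 and Itgax the highest at 1.41, and Fscn1 has the highest value shown at 2.52.

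Of 8 tested genes of class II turnover and transport 3 rose and 3 fell. Marchf1, the ubiquitin ligase that sends class II from the surface to lysosomes, rose from 1.11 to 3.25 CPM, by log2 1.53 (SE 0.36, edgeR adjusted p = 0.00519), and its relative Marchf8 fell by 0.38 on the log2 scale (edgeR adjusted p = 0.0168). Both were named for their role, after their values were seen. The tetraspanins split, with Cd63 and Cd81 higher (log2 fold change 1.49 and 0.95) and Cd82 and Cd9 lower (-1.07 and -0.63), each at an edgeR adjusted p of at most 0.00234.

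Of 11 tested genes of class II transcription 3 rose and 2 fell, where 21.4% and 19.9% of all tested genes did. The count that rose was 2 without any 1 of the controls, L-733,060 1 or L-733,060 2. It was 4 with DESeq2 size factors or a replicate block. The count that fell was 1 without control 3, without L-733,060 1 or with limma on log2(TPM + 1). Spi1, the PU.1 factor of myeloid cells, rose from 2.07 to 6.10 CPM, by log2 1.55 (SE 0.29, edgeR adjusted p = 0.00111). Nfyc, a subunit of NF-Y, rose by log2 0.52 (edgeR adjusted p = 0.00343). Rfx5, the subunit of the X box complex, fell by 0.46 on the log2 scale (edgeR adjusted p = 0.0103), but not without control 3 (adjusted p = 0.0536) or L-733,060 1 (adjusted p = 0.0602). Nor did Rfx5 pass with limma on log2(TPM + 1) (adjusted p = 0.0519). Klf4, also abundant in epithelium, went down from 546 to 272 CPM (log2 fold change -1.01, edgeR adjusted p = 4.65e-04).

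The interferon gamma route to Ciita showed no transcript of the cytokine. Ifng had no counts in any of the 6 samples, which allows at most 0.0234 CPM over them. Of 10 tested genes of the route 3 rose and 1 fell. The receptor chain Ifngr1 rose from 116 to 309 CPM, by log2 1.41 (SE 0.13, edgeR adjusted p = 8.88e-06), and Nlrc5, a relative of Ciita that acts on MHC class I, rose by log2 1.43 (edgeR adjusted p = 5.48e-04). Jak1 fell by 0.49 on the log2 scale (edgeR adjusted p = 0.00364). Jak2 rose by log2 0.34 (edgeR adjusted p = 0.0401) but lost that call without any 1 of the controls (adjusted p 0.0929 to 0.117) or L-733,060 2 (0.146). The call of Jak2 was also lost in edgeR without a filter on low counts (adjusted p = 0.0751). With limma on log2(TPM + 1) and log2(TPM + 0.1) Jak2 did not pass either (adjusted p = 0.0741 and 0.0712).

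Co-stimulation genes, which accompany class II on mature dendritic cells, were 3 of 8 higher and 1 lower, or 2 lower without L-733,060 2. Fscn1, the actin bundler of mature dendritic cells that other cells express too, rose from 4.59 to 26.2 CPM, by log2 2.52 (SE 0.29, edgeR adjusted p = 3.37e-05). Cd80 rose by log2 1.49 (edgeR adjusted p = 0.00358) and Cd86 by 1.31 (edgeR adjusted p = 0.0166), both ligands of CD28 on T cells. The call of Cd86 was lost when control 1 (adjusted p = 0.0608) or L-733,060 1 (0.0685) was left out. Icosl, the ligand of ICOS, fell by 0.59 on the log2 scale (edgeR adjusted p = 0.00650).

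Genes of T cells that recognise class II were scarce. Among 8 such genes 3 were tested and 2 rose, but 1 did without control 2, control 3 or L-733,060 1. Cd4, the co-receptor for class II, also carried by some myeloid cells, had 9, 4 and 1 counts in controls and 25, 18 and 13 with L-733,060 (log2 fold change 2.07, edgeR adjusted p = 0.0145), and it was the gene that lost its call without those samples (adjusted p 0.0516 to 0.0640). Cd3g, of the T cell receptor complex, rose from 0.223 to 0.956 CPM (log2 fold change 2.05, edgeR adjusted p = 0.00502). Icos did not pass (log2 fold change 1.07).

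Several genes beside the class II chains on chromosome 17 fell. Within 250 kb of the start of H2-Ab1, 10 genes outside the set were tested, of which 6 fell and 0 rose, where 19.9% of all tested genes fell. Psmb9 and Psmb8, subunits of the immunoproteasome that serves MHC class I, had log2 fold changes of -0.57 and -0.43 (edgeR adjusted p = 0.0128 and 0.0204), and Tap2, of the class I peptide transporter, -0.72 (edgeR adjusted p = 0.0108). Psmb9 measured 60.5, 67.5 and 64.4 TPM in controls and 33.0, 45.8 and 53.4 TPM after L-733,060, without overlap. These genes lie between the H2-DM genes and H2-Ab1. Further off, Col11a2, H2-Ke6 and Ring1 fell by 1.43, 0.97 and 0.69 (edgeR adjusted p = 0.00624, 1.20e-04 and 0.0184).

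The count of neighbours that fell rested on single samples, 3 of 10 without L-733,060 1 and 8 without L-733,060 3, and within 100 kb it was 3 of 4. At an unadjusted p under 0.05 edgeR had none of the 10 higher. At an adjusted p under 0.05 neither DESeq2 nor limma called 1 higher. The call of Psmb8 was lost when control 1 (adjusted p = 0.0511), control 2 (0.0624) or L-733,060 1 (0.107) was left out, that of Psmb9 without L-733,060 1 (0.0648), and that of Ring1 without control 1 (0.0739), L-733,060 1 (0.0607) or L-733,060 2 (0.0550). Psmb9 and Tap1 start close to each other, and whether counting used strand is not stated.

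**Figure D5:**
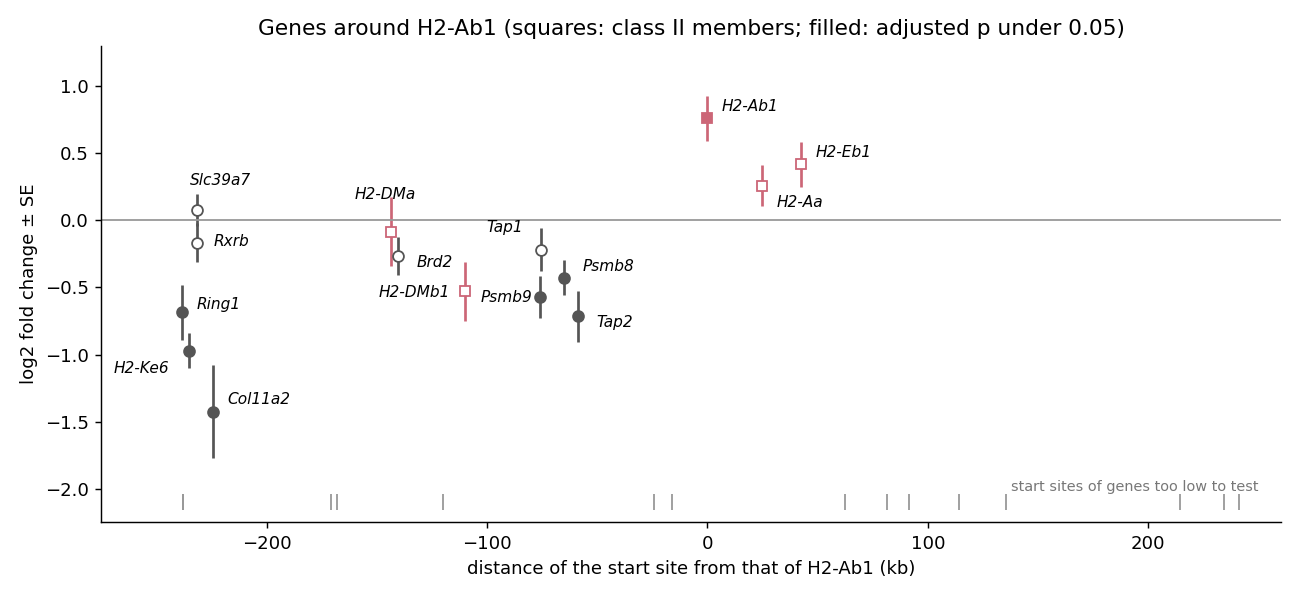
Log2 fold change (L-733,060 minus control, with SE) of each tested gene that starts within 250 kb of H2-Ab1, by distance in kb, with squares for class II members, circles for other genes, filled symbols past the test and ticks for genes too low to test. H2-Ab1 at 0.76 is the one filled symbol above 0, and the 6 filled circles lie between -0.43 and -1.43.

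The genes whose profile over the 6 samples was nearest to that of H2-Aa were not immune genes by their names. They were Timm17a, Atp5o, Nxt1, Prpf31 and Srp54c, with root mean square differences of 0.042 to 0.049 in centred log2 CPM, none of them past the test. Within the set H2-Eb1 was nearest to H2-Aa (0.11) and Itgax farthest (0.51).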

How the data were processed

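Limbal poly(A) RNA of 6 samples was sequenced. Per the submitters' processing notes the tools were bcl2fastq, HISAT2 2.1.0 and HTSeq 0.11.2 with mm10. Settings, strand mode and gene annotation are not given in the sources used. The authors deposited raw counts per gene and sample. The authors also deposited TPM, which match counts divided by gene length (other, deposited too) and rescaled, to within 4.96e-06.

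Counts were analysed in R 4.3.3 with edgeR 4.0.16 (filterByExpr, minimum count 10, minimum total 15, TMM, quasi-likelihood F test, two-sided, Benjamini-Hochberg over 15712 genes, threshold 0.05), and 23377 genes were removed. SE is the absolute log2 fold change over the square root of F. Alternatives used DESeq2 1.42.0 and limma 3.58.1, and each sample was left out in turn. The test was checked on simulated counts in which few genes changed and all genes shared a common dispersion. That check does not cover data in which 41.3% of tested genes passed. Total counts were 18708288 to 23541791, at which 3 counts are 0.127 to 0.160 CPM without TMM factors. Intervals and floors cover counting error only, as no molecular identifiers are described. Pairs of samples within a group differed beyond sampling noise (chi-square per gene 15.0 to 38.7).

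The genes of the set and the lists were chosen with earlier results of these data known. All 10 genes of the set are named, with up to 4 genes of smallest p per list, direct partners, and the 5 genes nearest to H2-Aa. Chil3, Ctsl, Prol1, Scgb1b2, the untested dendritic cell genes, Ms4a1, Cd22, Marchf1, Marchf8, Icos, Mertk, Cd163, Ly6c2, Muc5ac and the overlapping genes were named after values were seen. A gene withheld from this text is not reported here.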

Additional observations from a re-analysis of the deposited data

How the results depend on the processing

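H2-Ab1, Ctss and Itgax passed with all 12 alternatives, at log2 fold changes of 0.66 to 0.90, 0.92 to 1.13 and 0.66 to 1.81, and H2-Aa, H2-DMa and Ciita with none. With limma on log2(TPM + 1) or log2(TPM + 0.1) 5 genes of the set passed, 1 of them lower (H2-DMb1). Left-out samples gave 3 to 4. Over all genes 6496 passed, 5031 to 7510 with a sample left out. Over left-out samples the log2 fold change of H2-DMa ran from -0.25 to 0.14, above 0 without L-733,060 2, and that of Slc39a7 from -0.018 to 0.15, below 0 without L-733,060 3. Cd74 per H2-Aa ranged from -0.0048 to 0.37 (log2) over left-out samples, reversed without control 2. Neighbours of H2-Ab1 that fell numbered 3 in the 100 kb window and 3 to 8 over left-out samples. The causes were not tested. Samples that share a replicate number share only the number, with correlations of deviations of -0.050, 0.366 and 0.158, and control 1 correlated best with L-733,060 3 (0.238). A replicate block gave 7071 calls, and 3 in the set. Cd207, H2-DMb2, H2-Oa, H2-Ob and H2-Eb2 were too low to test at this depth.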
